A study of Mus musculus with 2 samples.

Results

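The respiratory chain genes described here are the 89 genes of the deposited count matrix that encode, or by their symbols belong with, the subunits of complexes I to IV, together with the protein genes of mitochondrial DNA. They were chosen by name: symbols that start with Ndufa, Ndufb, Ndufc, Ndufs, Ndufv, Uqcr, Cox4i, Cox5, Cox6, Cox7 or Cox8, the 4 genes Sdha, Sdhb, Sdhc and Sdhd, and every mt- protein gene, each with at least 1 UMI (unique molecular identifier, a tag that marks 1 captured RNA molecule) in both libraries. Of 21855 genes in the matrix, 96 matched these names and 89 were above 0 in both libraries, 76 encoded in the nucleus and 13 in mitochondrial DNA. The nuclear members comprised 38 genes of complex I, 4 of complex II, 8 of complex III, 18 of complex IV (Ndufa4 and Ndufa4l2 were counted there) and 8 Ndufaf genes, which encode assembly factors of complex I and are no subunits of the finished enzyme. The mitochondrial members were 7 genes of complex I, 1 of complex III, 3 of complex IV and 2 of complex V, the ATP synthase. The members with the fewest UMIs just inside the rule were Ndufs6b, with 24 UMIs in the control and 43 in the FA library, and Cox6c2, with 44 and 37. Both of these, and Ndufb4c, are annotated as processed pseudogenes and were counted with complex I or IV by their symbols.

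Just outside the rule, 7 matching names had UMIs in a single library: Ndufb1-ps in the control (15831 UMIs), and Ndufb1 (25637), Ndufa12-ps (478), Ndufs5-ps (412), Cox7c-ps1 (262), Cox5b-ps (194) and Cox7b2 (15) in the FA library. RefSeq lists Ndufb1 and Ndufb1-ps as names of the same gene, which encodes an accessory subunit of complex I, so the rule left it out for its naming and not for its level. Joined, its level in proximal tubule-like cells was 554 CPM (counts scaled as described below) in the control and 399 in the FA library, a ratio of 0.721 (95% interval 0.682 to 0.763), and in macrophage-like cells 154 and 375, a ratio of 2.43 (2.24 to 2.65). Both directions were those of the member sums given below for these cells.

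The respiratory chain sits in the inner mitochondrial membrane and passes electrons from NADH, through complex I, or from succinate, through complex II, to ubiquinone, then through complex III and cytochrome c to complex IV, which reduces oxygen. Complexes I, III and IV pump protons, and ATP synthase uses the gradient. Most subunits are encoded in the nucleus and imported, but the catalytic cores of complexes I, III and IV hold subunits made inside the mitochondrion from its own DNA, while complex II is encoded in the nucleus alone. Proximal tubule cells, which reabsorb most filtered solutes, are rich in mitochondria and depend on oxidative metabolism.

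The study profiled single cells of mouse kidney in 2 groups, each with 1 library: a wild type kidney labelled control, and a wild type kidney with nephropathy induced by folic acid (FA), a compound that injures the tubule at high dose. The labels give neither dose, time, age nor sex, and both groups share genotype and tissue. With 1 library a group no test of the treatment is possible. Intervals are 95% intervals that cover counting error in these libraries and nothing else, and a difference between the libraries may be a difference between animals, preparations or treatments.

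The matrix held 9681 control barcodes with 63646459 UMIs (median 4935 a barcode) and 18997 FA barcodes with 84138607 UMIs (median 2768). After filters and the removal of likely doublets, 5807 control and 13502 FA cells were kept, with median depths of 4833 and 3207 UMIs; 54 barcode sequences occurred in both libraries. Xist had 15 UMIs in the control and 104149 in the FA library and Ddx3y 3928 and 0, so a difference of sex and one of treatment cannot be told apart here. Barcodes in which more than 50% of UMIs were mitochondrial made up 34.9% of control and 15.7% of FA barcodes and were left out. Gsdmd and Gsdme, the genes of the study's title, were not deleted in either group and had 710 and 422 UMIs in the control and 2249 and 1304 in the FA library.

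Cells were clustered without the respiratory chain genes, and clusters were named by marker genes. Named classes numbering 11 had at least 50 cells in each library and are compared here: proximal tubule-like, intercalated-like, podocyte-like, urothelial-like, endothelial-like, stromal-like, macrophage-like, monocyte-like, dendritic-like, T cell-like and B cell-like. In proximal tubule-like cells, 16 markers in the control and 15 in the FA library were detected in at least 5% of cells. Different clusters made up some classes in the 2 libraries. Proximal tubule-like cells were clusters 2, 7 and 9 in the control (973, 395 and 859 cells) and cluster 27 in the FA library (741 of 744 cells), and macrophage-like cells were cluster 4 in the control (685 of 700 cells) and clusters 20 and 30 in the FA library (1190 and 601 cells). Within 4037 FA cells the marker rule gave no name. Levels are in CPM, here UMI counts scaled to 1000000 UMIs of genes not encoded by mitochondrial DNA, so that mitochondrial transcripts do not enter the denominator.

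Promoters of nuclear members are shown first. Nuclear genes of the chain have promoters of their own, while the mitochondrial members are cut from long transcripts of either strand, mt-Nd6 from one and the others from the opposite one. RefSeq windows of 300 bases (250 before to 50 after the start, build GRCm38.p6) were found for 59 of 76 nuclear members. The motif of NRF1, a transcription factor known for binding promoters of respiratory chain genes, was searched on both strands as GCGCA and GCGC separated by any single base. It occurred in 13 of 59 members with a window (22.0%) and in 5.19% of all 27025 genes with a window. Below are 60 bases around the first match in 4 members whose levels are described later, 2 of complex II, 1 of complex IV and 1 of complex I. Each is written 5′ to 3′ on the gene's strand with the motif in capitals.
Sdha, chr13:74350304-74350363, minus strand, match at position -98 from the start: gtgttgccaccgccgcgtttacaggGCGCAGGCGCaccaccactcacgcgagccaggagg
Sdhd, chr9:50603894-50603953, minus strand, match at position -79: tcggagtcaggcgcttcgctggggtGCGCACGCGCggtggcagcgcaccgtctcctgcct
Cox6a1, chr5:115349086-115349145, minus strand, match at position -162: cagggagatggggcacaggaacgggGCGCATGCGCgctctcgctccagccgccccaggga
Ndufa11, chr17:56717677-56717736, plus strand, match at position -60: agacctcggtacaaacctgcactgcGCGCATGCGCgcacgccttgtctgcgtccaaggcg

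The same search found CCGGAAG, the core motif of GABPA (NRF2), in 22.0% of members against 9.93% of all genes, and the YY1 motif, AAGATGG followed directly by CGGC, in 8.47% against 0.755%. CAAGGTCA, bound by estrogen-related receptors, stood in 3.39% against 1.76%, and TATAAA in 6.78% against 15.7%. Member windows were also richer in G and C, with a median of 59% against 52.7% over all windows. None of these strings contains another, and a match describes letters, not binding. In proximal tubule-like cells the 4 genes shown were all below the control in the FA library, with ratios of 0.449 for Sdha, 0.560 for Sdhd, 0.598 for Cox6a1 and 0.875 for Ndufa11. In macrophage-like cells the same 4 had 0.938, 0.851, 1.65 and 2.61, so 2 lay above the control and 2 below it.

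Among the compared classes the nuclear members were highest in tubule cells of both libraries. Control levels summed over the 76 nuclear members were 73407 CPM in intercalated-like cells and 52933 (52816 to 53050) in proximal tubule-like cells. They were 21191 in stromal-like, 19861 in podocyte-like and 15813 in urothelial-like cells. Next came 13181 in T cell-like, 13014 in monocyte-like and 12688 in endothelial-like cells, with overlapping intervals between T cell-like and monocyte-like and between monocyte-like and endothelial-like cells. Dendritic-like cells (11769), B cell-like cells (10549) and macrophage-like cells (9941) closed the order. The control library also held distal convoluted and principal cell-like cells, with 65864 CPM in 252 cells, and thick ascending limb-like cells, with 63720 in 102 cells, both too few in the FA library to compare.

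The FA library narrowed that range at both ends. Its nuclear sum was 40802 CPM in proximal tubule-like cells, a ratio to the control of 0.771 (0.767 to 0.775), and 53032 in intercalated-like cells, a ratio of 0.722 (0.712 to 0.733). In macrophage-like cells it was 16612 CPM, a ratio of 1.67 (1.65 to 1.69). The other 8 classes lay between 0.929 in podocyte-like cells and 1.20 in monocyte-like cells, with urothelial-like cells at 1.01, B cell-like cells at 1.03, T cell-like cells at 1.04 and stromal-like cells at 1.08. The ratio was under 1 in 3 of 11 classes. Over all kept cells pooled, whose mix of classes differed between the libraries, 44 of 76 nuclear members were lower past 1.5-fold and none higher, where 32.5% of all genes were lower and 16.7% higher. FA cells of the injured tubule-like class, marked by genes such as Havcr1 and Krt20 and with 17 cells in the control, had 26623 CPM in 696 cells.

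**Figure D1:**
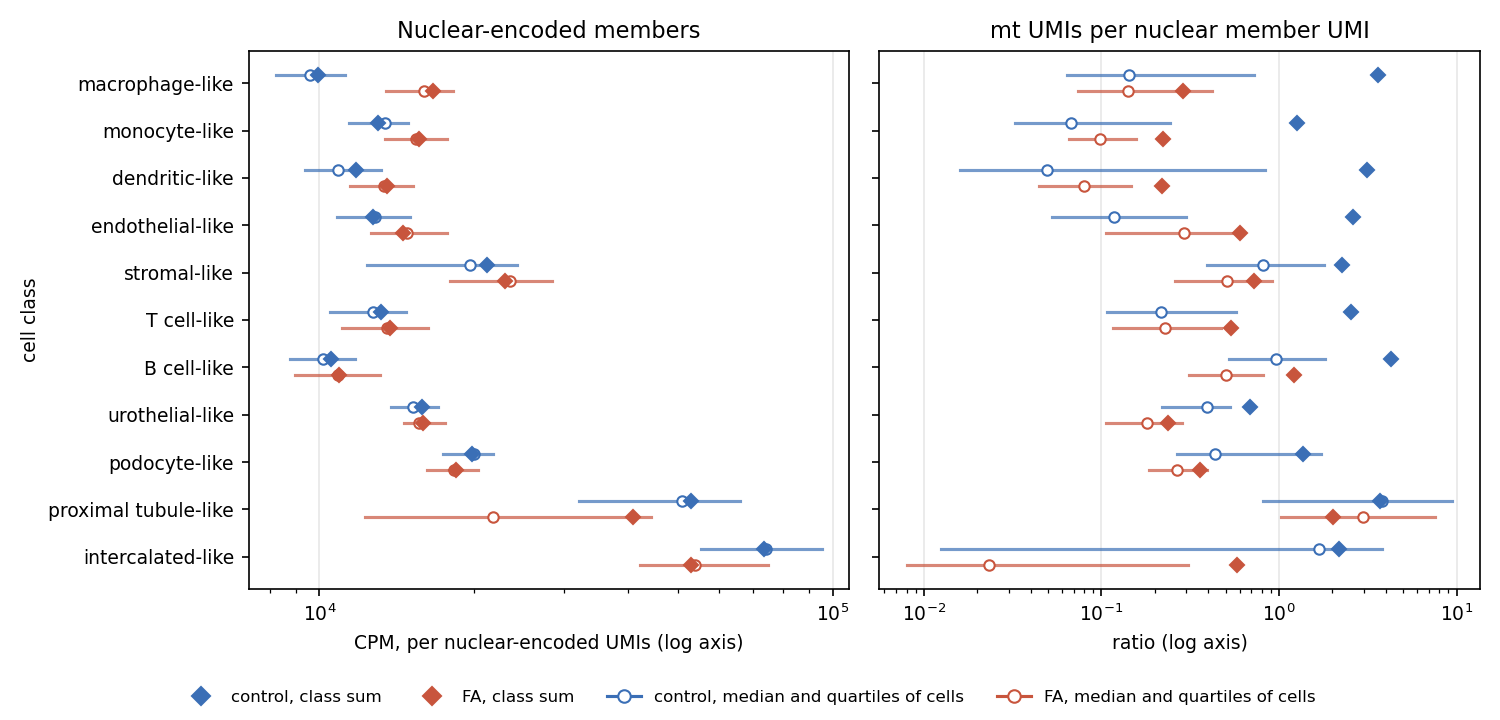
Nuclear respiratory chain levels and the ratio of mitochondrial to nuclear member UMIs in each compared class of the control and FA libraries, on log axes. Diamonds are sums over a class, circles and lines the median and quartiles over its cells (a lower quartile of 0 is drawn at the left end); FA proximal tubule-like and intercalated-like cells lie left of the control and macrophage-like cells right of it on the nuclear scale.

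Proximal tubule-like cells of the FA library had lower levels of most nuclear members, and complex II stood lowest. Complex II had 1798 CPM in the control and 934 in the FA library, a ratio of 0.520 (0.501 to 0.538). Complex I had 19820 and 15969 (0.806), complex III 8802 and 6882 (0.782) and complex IV 22077 and 16627 (0.753). Of 73 nuclear members with at least 20 UMIs over both libraries, 68 had a ratio under 1. At a ratio of 1.5 or its inverse, 20 of 73 were lower and 1 higher, where 20% of all 12917 genes measured in these cells were lower and 19.9% higher. The members' median log2 ratio was -0.36 and that of all genes -0.05. So the count of members past 1.5-fold was near the background in the lower direction and far under it in the higher one.

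The 4 genes of complex II, succinate dehydrogenase, which also serves the citric acid cycle, were each among those 20. Sdha (chr13:74322254-74350280), the flavoprotein that oxidises succinate, had 8198 UMIs in the control and 919 in the FA library, 552 and 248 CPM, a ratio of 0.449 (0.419 to 0.481). Sdhb, the iron-sulfur subunit, had 561 and 352 CPM (0.627). The membrane anchors Sdhc and Sdhd had 438 and 196 (0.447), and 247 and 138 (0.560). Every one of the 4 was lower in the FA library, the catalytic flavoprotein and 1 anchor most.

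Within complex I, 6 of 37 measured genes were lower past 1.5-fold, among them the pseudogene Ndufb4c (0.558), and none higher. Ndufs1, which holds iron-sulfur clusters of the electron path, had 217 and 101 CPM (0.464, 0.416 to 0.517), and Ndufv2, a partner of the NADH-binding subunit, 396 and 258 (0.652). At the other end Ndufs4, an accessory subunit, had 288 and 309 (1.08, 1.01 to 1.15), and Ndufa13 had 1169 and 1164 (0.996). Complex I genes thus ranged from well below the control to slightly above it. In complex III, 3 of 8 were lower: Uqcrc2, a core protein, with 390 and 188 CPM (0.483), Uqcrfs1, the Rieske iron-sulfur protein, with 624 and 371 (0.594), and Uqcr11 with 1482 and 981 (0.662). Uqcrb, which binds near ubiquinone, had 1136 and 1071 (0.943).

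Complex IV held both extremes among members with at least 50 UMIs in a library. Cox7a1 (chr7:30184144-30186078), the isoform of subunit 7a known from heart and muscle, had 1104 and 113 UMIs, 74.4 and 30.5 CPM, a ratio of 0.410 (0.335 to 0.498). Cox6b2 (chr7:4751792-4753094), the isoform of subunit 6b known from testis, had 408 and 377 UMIs, 27.5 and 102 CPM, a ratio of 3.70 (3.21 to 4.27). Cox6b2 was the single nuclear member higher past 1.5-fold in these cells. Cox6c2, a processed pseudogene counted with complex IV by its symbol, had a ratio of 0.277 (0.0320 to 1.09) from 29 and 2 UMIs. Cox4i1, the common form of the regulatory subunit 4, had 3035 and 2081 CPM (0.686), Cox6a1 955 and 571 (0.598) and Cox6c 2616 and 1583 (0.605), while Cox7b had 1028 and 977 (0.951). Of the 8 assembly genes, Ndufaf1 (0.554) and Ndufaf7 (0.646) were lower and Ndufaf2, Ndufaf3 and Ndufaf4 lay between 1.03 and 1.05.

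The size of this difference depended on the depth of the cells. In proximal tubule-like cells of 5000 or more UMIs (1354 control and 307 FA cells), the nuclear sum was 53749 CPM in the control and 50032 in the FA library, a ratio of 0.931 (0.925 to 0.936). In cells under 5000 UMIs (873 and 437) it was 47532 and 20699, a ratio of 0.435 (0.429 to 0.442), and 67 of 72 measured members were lower past 1.5-fold, where 25% of all genes measured at that depth were lower. In the deeper cells 8 of 73 were lower, a share under the 24.5% of all genes there, whose median log2 ratio was -0.16. The control level hardly moved with depth, whereas the FA level was 19245 in cells of 500 to 2000 UMIs and 20795 in cells of 2000 to 5000. Median depth of the class was 6614 UMIs in the control and 4341 in the FA library. Summed proximal tubule markers were 36511 CPM in the control and 20008 in the FA library, and they did not follow the FA depth difference, at 19106, 19403 and 20294 from the shallow to the deep cells. What part depth has in the ratio was not tested.

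Complex II differed from the other complexes at either depth. In cells of 5000 or more UMIs its ratio was 0.613 (0.589 to 0.638), while complexes I, III and IV had 0.965, 0.953 and 0.916. Sdha there had 562 and 277 CPM (0.493, 0.455 to 0.532) and Sdhc 439 and 234 (0.535). Cox6b2 in the same deep cells had 27.4 and 124 CPM (4.52, 3.87 to 5.28), and Ndufs1 216 and 110 (0.509). In the shallower cells complex II had 0.322 and complexes I, III and IV 0.470, 0.420 and 0.413. The deep FA cells therefore lay close to the control for the sums of complexes I, III and IV, with complex II, Ndufs1 and Cox7a1 (0.485) well below it and Cox6b2 above.

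Macrophage-like cells of the FA library had higher levels of most nuclear members. Complex I was at 3950 CPM in the control and 6898 in the FA library (1.75), complex III at 1494 and 2388 (1.6), complex IV at 4033 and 6675 (1.66) and complex II at 287 and 393 (1.37, 1.29 to 1.46). Of 72 measured nuclear members, 62 had a ratio above 1, 46 were higher past 1.5-fold and 1 lower, where 25.7% of all 12526 genes measured in these cells were higher and 22.6% lower. The median log2 ratio was 0.77 for members and 0.05 for all genes. The ratio of the nuclear sum was 1.70 in cells of 5000 or more UMIs and 1.41 in shallower cells, so it had the same direction at either depth. Of the members, 50 of 72 were higher and 1 lower in the deeper cells, where 25.7% of all genes were higher and 23.4% lower. In the shallower cells 33 of 68 were higher and 1 lower, where 34.5% of all genes were higher and 13% lower. Summed proximal tubule markers were 347 CPM in the control and 162 in the FA cells.

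By its own row, Ndufa12 (chr10:94198720-94221443), an accessory subunit, was the highest complex I member, with 145 and 1546 UMIs, 35.7 and 109 CPM, a ratio of 3.04 (2.57 to 3.63). Its value is uncertain, because a processed copy of it was also counted, under a different name in each library. Summed with that copy its ratio was 2.34 (2.02 to 2.73), below Ndufc1 and Ndufa11. Ndufc1 had 89.5 and 268 CPM (2.99) and Ndufa11, whose promoter is shown above, 82.6 and 216 (2.61). In complex III, Uqcrq had 161 and 485 CPM (3.01) and Uqcr10 177 and 415 (2.35), and in complex IV Cox5a had 194 and 580 (3.0) and Cox7b 181 and 452 (2.5). These are small accessory subunits, and Cox5a, with Cox5b (297 and 666, 2.25), sits on the matrix face of complex IV. Among assembly factors Ndufaf2 had 15 and 39.2 CPM (2.62).

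A few members did not share that direction. Cox7a2l (chr17:83501918-83517330), known as a factor that joins complexes III and IV into supercomplexes, had 1712 and 3025 UMIs, 421 and 212 CPM, a ratio of 0.504 (0.475 to 0.535). It was the 1 nuclear member lower past 1.5-fold, and it was also lower in monocyte-like cells (567 and 314 CPM, 0.555) and dendritic-like cells (488 and 283, 0.579), with a ratio under 1 in 9 of 11 classes. Uqcrh, the hinge protein of complex III, had 484 and 417 CPM (0.862). Sdhd had 59.8 and 50.9 (0.851), Sdha 82.1 and 77.1 (0.938) and Ndufaf7 a ratio of 0.841, while Sdhc (40.6 and 64.6, 1.59) and Sdhb (104 and 201, 1.93) were higher. Complex II of these cells was thus split, with 2 genes higher past 1.5-fold and 2 near or under equality.

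**Figure D2:**
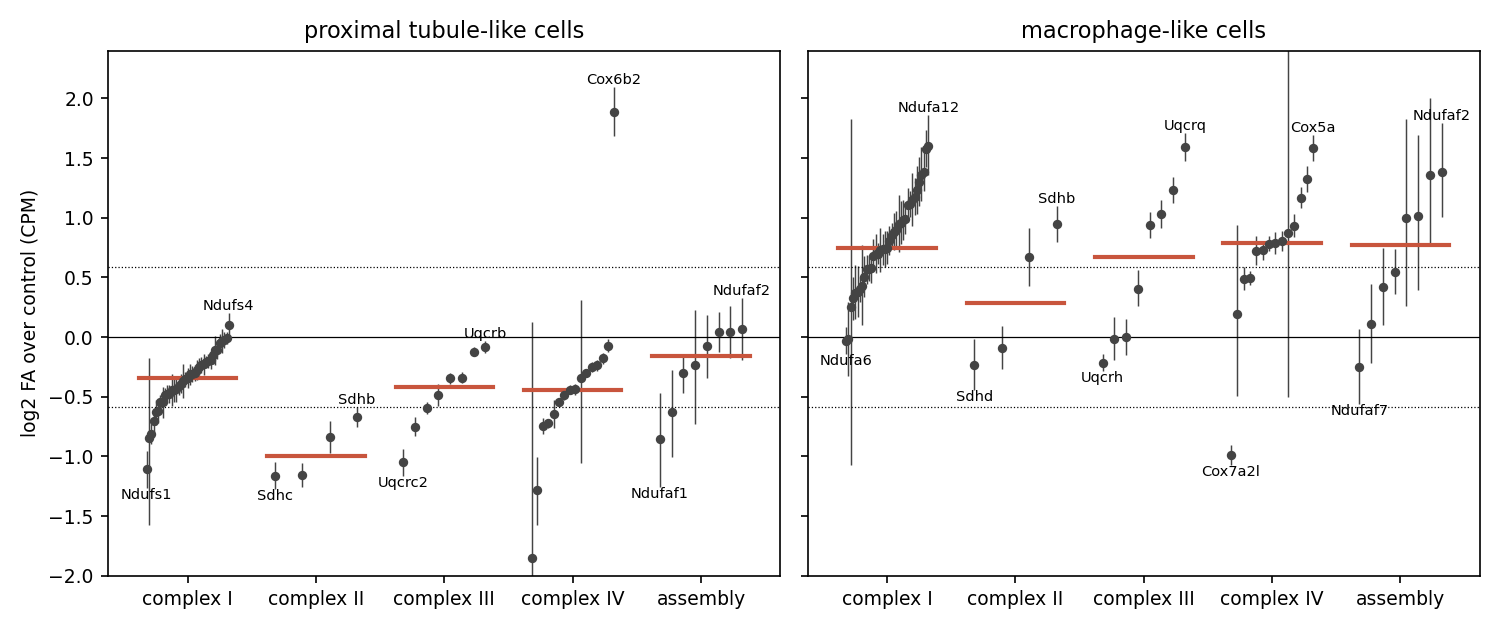
FA over control ratio of each measured nuclear member in proximal tubule-like and macrophage-like cells, by complex, on a log axis with counting intervals. Dotted lines mark a ratio of 1.5 and its inverse and the red bar each complex's median; intervals of 2 members with few UMIs run past the axis. Most points lie below 1 in proximal tubule-like cells, with Cox6b2 at 3.70 above them, and above 1 in macrophage-like cells, with Cox7a2l at 0.504 below them.

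A set of 11 nuclear core subunits, most of which carry redox centres, had lower median ratios than the others in both cell types. The grouping was made after their values were seen. The 11 were Ndufs1, Ndufs3, Ndufs7, Ndufs8, Ndufv1, Ndufv2, Uqcrfs1 and the 4 Sdh genes. Their median ratio was 0.627 in proximal tubule-like cells (0.447 to 0.966), and that of 53 other measured members of complexes I to IV was 0.789. These 53 included Uqcrc1 and Uqcrc2, core proteins of complex III, and the pseudogenes Ndufb4c and Cox6c2. In macrophage-like cells the medians were 1.30 (0.851 to 1.97) and 1.78 over 52 others. Transcript length moved with this grouping: the annotated transcripts of the 11 had a median of 1312 bases and those of the others 625. In macrophage-like cells, the 368 measured genes of any function with transcripts under 731 bases, the median of the members, had a median log2 ratio of 0.49 and the 10698 longer genes 0.07, and the members on either side of that length had 0.86 and 0.70. In proximal tubule-like cells the short and long genes of any function had -0.17 and -0.06, and members -0.34 and -0.44. The part of transcript length in the members' ratios was not tested.

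Intercalated-like cells, which secrete acid or base in the collecting duct and belonged to the same cluster in both libraries, resembled proximal tubule-like cells in the direction of the members. In the FA library 20 of 70 measured nuclear members were lower and 1 higher, where 25.1% of all genes measured were lower and 15% higher, and the members' median log2 ratio was -0.47. Complex II had 2291 and 1252 CPM (0.546, 0.498 to 0.599) and complexes I, III and IV had ratios of 0.744, 0.721 and 0.714. The lowest members were Cox7a1, with 437 and 148 CPM (0.338), Cox6a1, whose promoter is shown above, with 1237 and 521 (0.421), and Uqcrc1, a core protein of complex III, with 670 and 302 (0.451). Among members with at least 50 UMIs in a library, Ndufaf2 (1.25, 0.798 to 1.95) and Cox7a2l (1.21, 1.02 to 1.44) had the highest ratios. The 1 member higher past 1.5-fold was Cox6b2, with 14 and 19 UMIs (2.23, 1.06 to 4.81). Median depth was 5120.5 UMIs in the control cells and 1189 in the FA cells. In cells under 5000 UMIs (66 control and 185 FA cells) 17 of 65 members were lower and none higher, where 23.8% of all genes were lower and 22% higher. FA cells of 5000 or more UMIs numbered 29, under the 50 asked of a class, so no count is given for them.

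In the remaining 8 classes few members passed 1.5-fold. In T cell-like cells none of 69 measured nuclear members was higher and 1 was lower, where 17.3% of all genes measured were higher and 16.7% lower. That member was Sdhd, with 66.7 and 38.3 CPM (0.575). In podocyte-like cells 1 of 71 was higher and 4 lower (background 12.4% and 13.7%), in urothelial-like cells 1 of 68 and 4 (11.3% and 19.2%), in cells like B cells 5 of 65 and 4 (17.9% and 15.5%) and in stromal-like cells 4 of 71 and 6 (11.9% and 26.3%). In dendritic-like cells 11 of 70 were higher and 4 lower (20.2% and 18%), in monocyte-like cells 14 of 68 and 4 (17.8% and 24.1%) and in endothelial-like cells 10 of 68 and 4 (18.4% and 21.4%). The shares of members past 1.5-fold in these classes were at or under the background in each direction, apart from the higher direction in monocyte-like cells at 20.6%.

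Sdhd was the one subunit of complex II under 1 in each of the 11 classes, from 0.475 in intercalated-like to 0.955 in B cell-like cells, and it was lower past 1.5-fold in 8 of them. Among the other nuclear members, Ndufs1 was lower past 1.5-fold in 5 classes and Ndufaf7, a methyltransferase that acts on complex I during assembly, in 5 of 10. Ndufaf7 shares a stretch at 97% identity with transcripts of other genes, so its counts are uncertain. The same holds for the other members with such a stretch in a counted transcript. They were 11 with Ndufaf7, among them Ndufa12, Ndufc1, Ndufab1, Cox5b and Cox7a2l. On the higher side, Ndufc1, Ndufab1, Ndufv3, Uqcr10 and Ndufaf6 each passed 1.5-fold in 4 classes, Ndufv3 highest in monocyte-like cells (65.1 and 175 CPM, 2.69). The complex II sum had a ratio under 1 in 9 of 11 classes, and monocyte-like cells (1.06, 0.881 to 1.28) and macrophage-like cells were the other two.

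Several complex IV subunits come in pairs, a common form and a form restricted to some tissues, and the share of the restricted form set classes apart. Ndufa4l2, a relative of Ndufa4 known to be induced by low oxygen, made up 63.7% (61.4 to 66.0, 1100 of its UMIs beside 627 of Ndufa4) of the pair in control stromal-like cells and 40.3% (37.5 to 43.0, 506 beside 751) in FA stromal-like cells. In every other class it was at most 1.44%. Cox4i2, the form of subunit 4 known from lung and from oxygen-sensing cells, made up 37.3% (34.8 to 39.9) of its pair with Cox4i1 in control and 15.8% (13.7 to 18.1) in FA stromal-like cells and at most 0.233% elsewhere. Both restricted forms were thus confined, among these classes, to stromal-like cells, at a lower share in the FA library. These cells were mostly clusters 11 and 22 in both libraries, with 123 and 62 cells in the control and 128 and 39 in the FA library. How far that mixture sets the shares was not tested.

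Cox6b2 made up 1.77% (1.6 to 1.95) of its pair with Cox6b1 in control proximal tubule-like cells and 7.28% (6.59 to 8.02) in FA ones, 3.59% in FA injured tubule-like cells, and 17.9% and 15.7% in stromal-like cells, and 9.09% and 3.30% in dendritic-like cells. Cox7a1 made up 14.1% (12.8 to 15.5) of its pair with Cox7a2 in control intercalated-like cells and 7.31% (5.78 to 9.11) in FA ones, against 3.76% and 2.19% in proximal tubule-like cells. Cox6a2, the heart and muscle form of subunit 6a, made up 13.5% (9.04 to 19.2, 26 UMIs) of its pair with Cox6a1 in control dendritic-like cells and 7.87% (6.43 to 9.51) in FA ones. The share of Cox6b2 in proximal tubule-like cells was higher in the FA library and that of Cox7a1 lower, so the restricted forms did not move together.

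**Figure D3:**
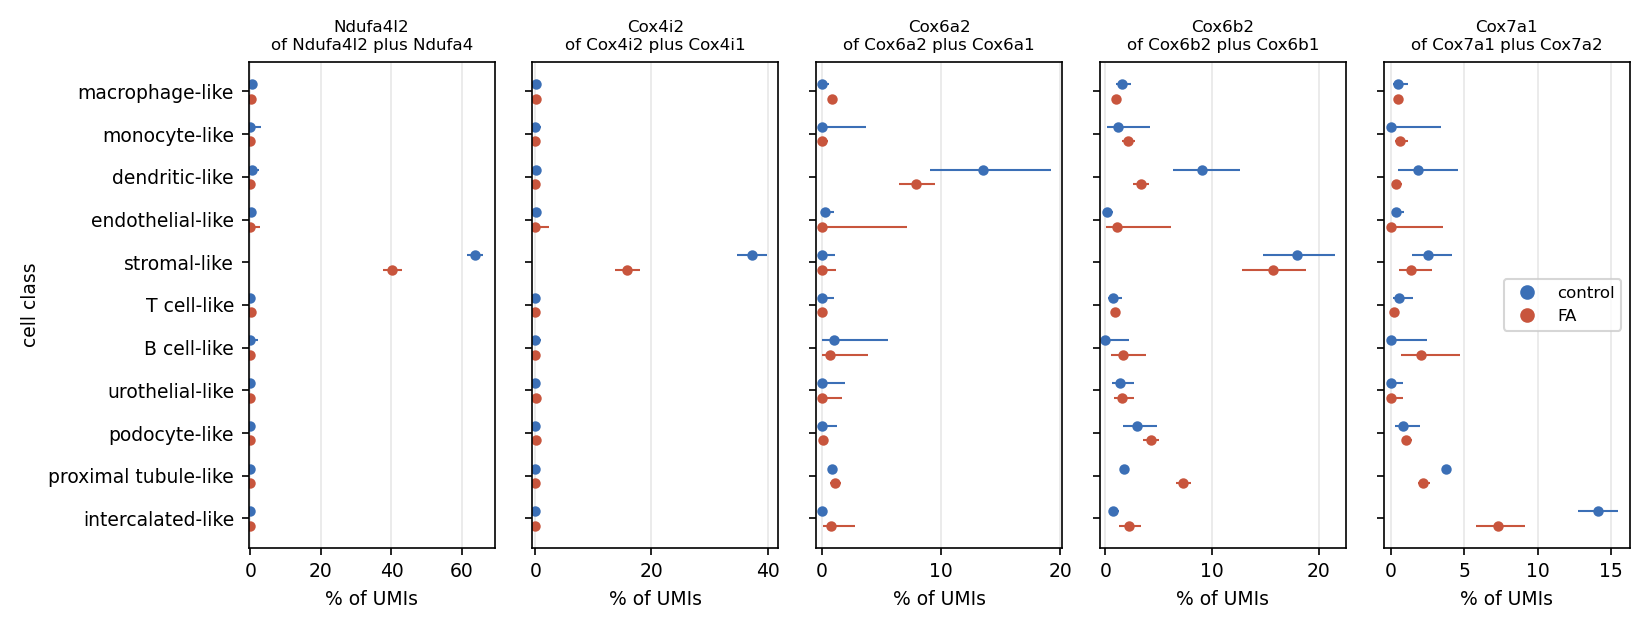
Share of the tissue-restricted form in 5 pairs of complex IV genes, in percent of the pair's UMIs with exact binomial intervals, by class and library. Stromal-like cells stand apart for Ndufa4l2 (63.7% and 40.3%) and Cox4i2 (37.3% and 15.8%), and have the highest share of Cox6b2 as well (17.9% and 15.7%), which is 1.77% and 7.28% in proximal tubule-like cells.

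By sums over a class, the mitochondrial genes had lower levels in the FA library in most classes, and not in equal measure. In proximal tubule-like cells the 13 genes summed to a ratio of 0.417, with mitochondrial complex I at 124154 and 46349 CPM (0.373), mt-Cytb, the complex III subunit, at 61472 and 25651 (0.417), complex IV at 9362 and 7827 (0.836) and complex V at 2022 and 2387 (1.18, 1.15 to 1.21). In macrophage-like cells the sum was 35867 and 4805 CPM (0.134), with complex I at 0.121, mt-Cytb at 0.0857, complex IV at 0.454 and complex V at 0.414. The median macrophage-like cell had the opposite order, with 1419 CPM in the control and 2342 in the FA library, and 5% of the control cells held 63.4% of these UMIs. Medians were also higher in FA endothelial-like (1492 and 4269), monocyte-like (873 and 1559), dendritic-like (615 and 1045) and T cell-like cells (2619 and 2977). In the other compared classes the median was lower in the FA library. By sums, complexes I and III of mitochondrial origin thus had the lower ratios in both proximal tubule-like and macrophage-like cells. By sums too, the 6 genes mt-Nd1, mt-Nd2, mt-Nd3, mt-Nd4, mt-Cytb and mt-Co2 were lower past 1.5-fold in 11 of 11 classes. The same held for mt-Co3 in the 10 where both libraries had UMIs of it (FA endothelial-like cells had 0).

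The gene with the lowest ratio was mt-Nd3, a small membrane subunit of complex I, from 0.0174 in dendritic-like to 0.120 in proximal tubule-like cells. mt-Nd5, a proton-pumping subunit, ranged from 0.313 to 1.46, and mt-Co1, the catalytic subunit of complex IV, from 0.361 to 1.01. By contrast mt-Nd4l had a ratio above 1 in 9 of 11 classes (1.99 in proximal tubule-like cells) and mt-Atp8 in 6 of 11 (1.65 in proximal tubule-like cells). Of mitochondrial protein UMIs in all kept cells, mt-Cytb made up 31.5% in the control and 30.5% in the FA library, whereas mt-Nd3 made up 3.22% and 0.889%, mt-Co1 4.85% and 11.7%, mt-Nd5 3.58% and 8.25%, and mt-Atp8 0.592% and 2.25%. The make-up of the counted mitochondrial protein UMIs therefore differed between the libraries beyond their amount. Of these genes mt-Nd3, mt-Co1 and mt-Atp8 lie in a stretch copied on chromosome 1 (below), where counts are uncertain, and mt-Cytb and mt-Nd5 do not.

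Per kilobase of gene, the level in all kept cells was highest for mt-Cytb, at 31538 CPM per kilobase in the control and 5699 in the FA library. mt-Nd2 had 20244 and 3311, mt-Nd1 19343 and 3365, and mt-Nd4 17326 and 2135. At the low end stood mt-Nd4l, with 178 and 184, mt-Co2, with 179 and 49.1, mt-Co3, with 250.5 and 35.1, and mt-Nd6, with 270.2 and 134. The first 3 of these lie on the same primary transcript as mt-Cytb, and mt-Nd6 on the other strand. mt-Co2 and mt-Co3 are copied in the nuclear genome: a stretch of chromosome 1 (chr1:24611535-24616197 in GENCODE vM21) holds annotated pseudogenes identical over 681 bases of mt-Co2, 783 of mt-Co3, 678 of mt-Atp6 and 876 of mt-Nd4, and at 99.7% to mt-Nd3, and mt-Nd4l and part of mt-Co1 have copies there too. How reads that fit both places were counted is not stated, so levels of those 7 genes, and of mt-Atp8 within the same stretch, are uncertain. The 5 genes outside it, mt-Nd1, mt-Nd2, mt-Nd5, mt-Nd6 and mt-Cytb, gave a log2 ratio of their sum of -1.23 in proximal tubule-like and -3.06 in macrophage-like cells, against -1.26 and -2.90 for the 13.

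**Figure D4:**
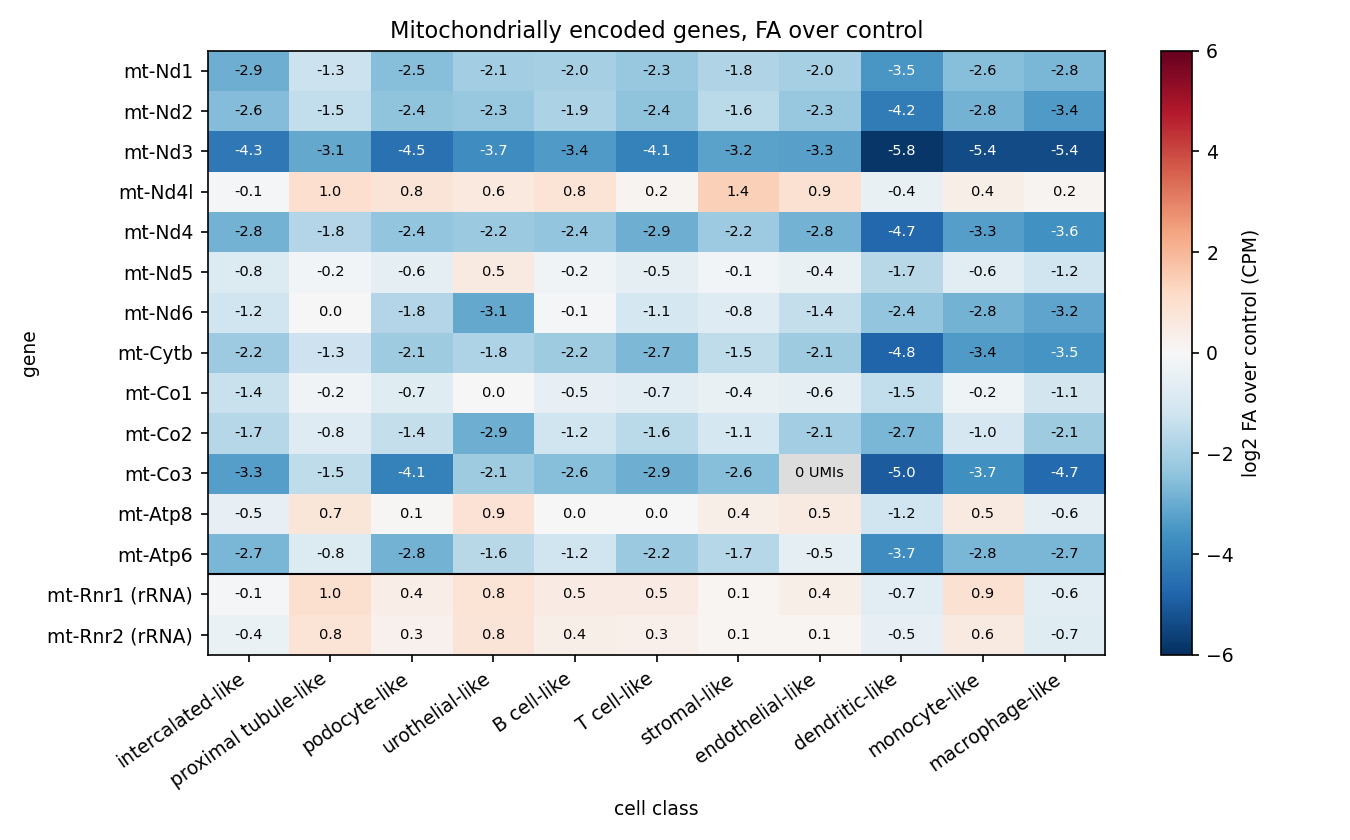
Log2 ratio of FA over control, from UMIs summed over a class, for each mitochondrial protein gene and both ribosomal RNAs in each compared class. Blue is lower and red higher in the FA library and grey a gene with 0 UMIs in a library; mt-Nd3, mt-Nd4 and mt-Cytb are blue in every class, and mt-Nd4l is above 0 in 9 of 11.

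Set against the nuclear members, mitochondrial UMIs were lower in the FA library in 11 of 11 classes when the UMIs of a class were summed. In control proximal tubule-like cells there were 3.72 mitochondrial UMIs per nuclear member UMI and in FA ones 2.01, a ratio of 0.541 (0.538 to 0.545), the highest of the 11. This order held in cells of 5000 or more UMIs (3.70 and 1.51) and turned in shallower ones, with 1.85 and 4.04 in cells of 500 to 2000 UMIs and 4.30 and 4.74 in cells of 2000 to 5000. The cells under 5000 UMIs were 437 of the 744 FA cells. Dendritic-like cells had 3.15 and 0.220, a ratio of 0.0698 (0.0678 to 0.0717), the lowest. In macrophage-like cells the values were 3.61 and 0.289, in intercalated-like cells 2.17 and 0.578, and in podocyte-like cells 1.36 and 0.360. By complex, the mitochondrial to nuclear ratio in proximal tubule-like cells was 6.26 and 2.90 for complex I, 6.98 and 3.73 for complex III, and 0.424 and 0.471 for complex IV. Complex IV of proximal tubule-like cells was the exception to the direction, with a ratio of 1.11, and it was lower in the other 10 classes.

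This sum rested on few cells in many control classes. The 5% of control cells with the most mitochondrial UMIs held 63.4% of those UMIs in macrophage-like, 70.1% in T cell-like and 72.9% in endothelial-like cells, against 18.9% in proximal tubule-like and 18.8% in intercalated-like cells. The median over cells of the mitochondrial to nuclear ratio was 0.142 in control and 0.141 in FA macrophage-like cells, 0.216 and 0.227 in T cell-like cells, and 0.118 and 0.290 in endothelial-like cells. It was lower in the FA library in 7 of 11 classes, among them proximal tubule-like (3.81 and 2.96), intercalated-like (1.67 and 0.0233), podocyte-like (0.434 and 0.266) and lastly the B cell-like class (0.956 and 0.50). The median macrophage-like cell thus had close to the same ratio in both libraries while the sums were far apart, and in the tubule and podocyte classes both measures were lower in the FA library. Control intercalated-like cells were widely spread, with quartiles of 0.0125 and 3.81.

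A limit of 5% on mitochondrial UMIs, which selects cells by part of the quantity compared, gave a mixed picture. Below it the summed ratio was lower in the FA library in 7 of 11 classes, with limits of 10% and 20% in 9 and 11. At 5% it was 0.230 and 0.199 in macrophage-like cells, 0.860 and 0.506 in the B cell-like class and 0.487 and 0.298 in podocyte-like cells. It was 0.171 and 0.252 in proximal tubule-like cells (569 and 150 cells) and 0.0450 and 0.0762 in intercalated-like cells (47 and 167). Endothelial-like cells had 0.161 and 0.256, and dendritic-like cells 0.115 and 0.128. In the 5% set, which holds the cells with the lowest mitochondrial share, the order of the libraries was thus reversed in proximal tubule-like, intercalated-like, endothelial-like and dendritic-like cells. Of the barcodes left out for more than 50% mitochondrial UMIs, 1304 of 3380 in the control and 2000 of 2982 in the FA library had at least 200 genes and 500 UMIs. These had 99.0 and 44.2 mitochondrial UMIs per nuclear member UMI.

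**Figure D5:**
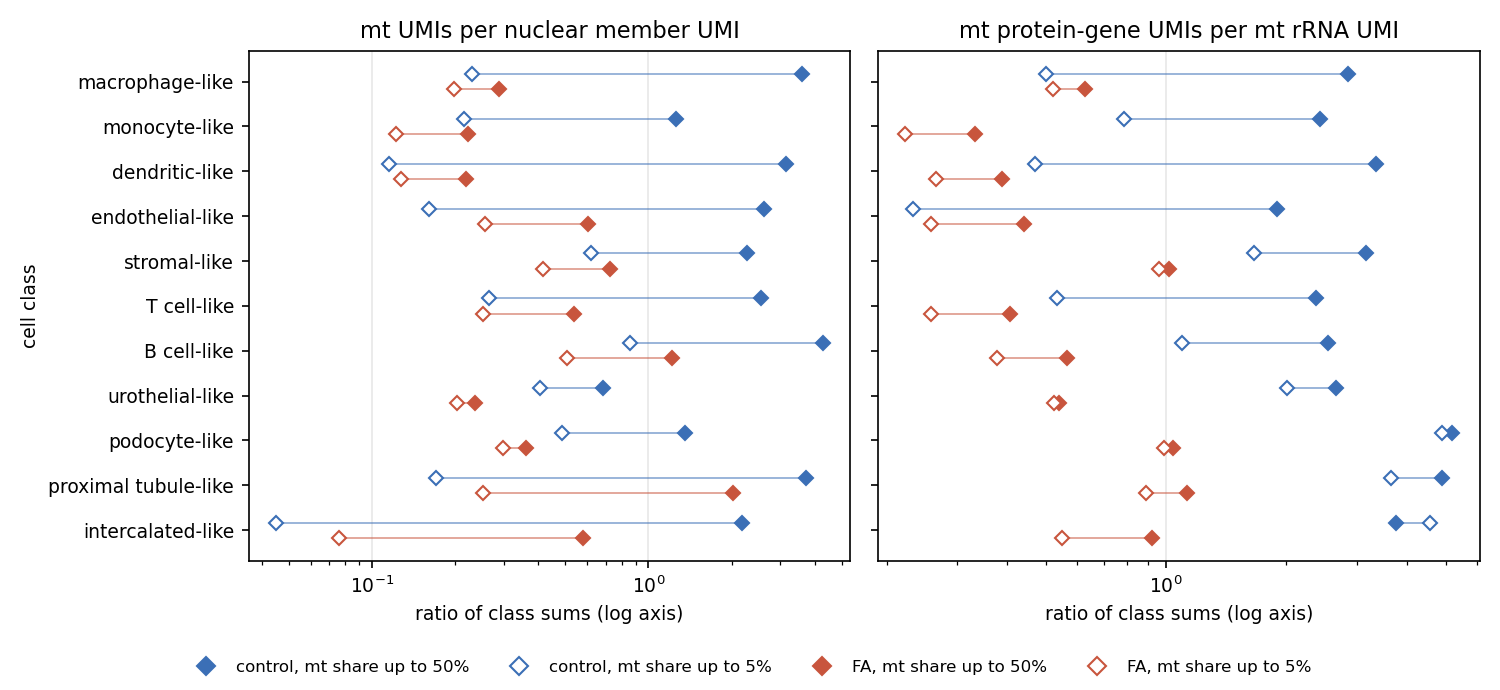
Mitochondrial UMIs per nuclear member UMI and mitochondrial protein-gene UMIs per ribosomal RNA UMI, by class and library, on log axes. Filled diamonds sum over all kept cells of a class and open diamonds over cells with at most 5% mitochondrial UMIs; the gap between libraries is narrower for the open diamonds in macrophage-like cells (0.230 and 0.199 on the first scale).

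The ribosomal RNAs of the mitochondrion, mt-Rnr1 and mt-Rnr2, did not follow its protein genes. Their sum was 40119 CPM in control and 73079 in FA proximal tubule-like cells (1.82), and it was lower in the FA library in 3 of 11 classes, lowest in macrophage-like cells (0.609). Protein-gene UMIs per ribosomal RNA UMI were 4.91 and 1.12 in proximal tubule-like, 5.20 and 1.04 in podocyte-like, 3.76 and 0.924 in intercalated-like, 2.86 and 0.629 in macrophage-like and 2.37 and 0.408 in T cell-like cells. This ratio was lower in the FA library in 11 of 11 classes, from 0.116 in dendritic-like to 0.321 in stromal-like cells. In cells with at most 5% mitochondrial UMIs it was lower in 9 of 11 classes, with 3.65 and 0.890 in proximal tubule-like and 4.89 and 0.988 in podocyte-like cells, but 0.50 and 0.522 in macrophage-like cells. It is a ratio within the mitochondrial transcripts, so the nuclear denominator does not enter it, and how the capture of each kind of RNA differed between the libraries was not tested.

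Some FA cells without a class name had extreme values. Cluster 0 (880 cells), whose leading genes were globin genes such as Hbb-bs with Fbp2 and Fabp1, had 54561 nuclear member UMIs CPM with a mitochondrial to nuclear ratio of 0.235. Cluster 26 (1244 cells), led by Ttn, Lama5 and Pkhd1, had 10283 CPM and a ratio of 11.2, and cluster 29 (1012 cells), led by Fgg, Spp1 and Cfi, 31226 and 6.80, with median depths of 1733 and 1397 UMIs. The nuclear level of cluster 0 lay near that of the control proximal tubule-like cells, at a far lower mitochondrial ratio.

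The rest of the respiratory machinery was read from lists of pathway genes. In macrophage-like cells of the FA library, where 25.7% of all genes were higher past 1.5-fold and 22.6% lower, 12 of 18 nuclear ATP synthase genes were higher past 1.5-fold and 1 lower, with Atp5g1, a form of the c-ring subunit, at 177 and 452 CPM (2.56). Cycs, cytochrome c, was at 56.8 and 217 (3.81). Of 77 mitochondrial ribosome genes, which serve the translation of the 13 mitochondrial proteins, 58 were higher and none lower, with a median log2 ratio of 0.79. The list for replication and transcription of mitochondrial DNA had 0 of 15 higher and 2 lower, among them Polg2, an accessory subunit of the DNA polymerase, at 0.467, and the biogenesis regulators had 1 of 10 higher, Pprc1 at 1.75. Glycolysis had 8 of 18 higher, led by Pgk1 at 3.21, and 1 lower.

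The same lists in proximal tubule-like cells stood beside a background of 20% of all genes lower and 19.9% higher. ATP synthase and the mitochondrial ribosome lay under it in the higher direction. ATP synthase had 5 of 18 lower and none higher, with Atp5a1, the alpha subunit, at 1746 and 982 CPM (0.563). The mitochondrial ribosome had 11 of 77 lower (14.3%) and none higher. Cycs was at 799 and 836 (1.05). Replication and transcription of mitochondrial DNA had 1 of 16 higher and 4 lower, with Mgme1, a mitochondrial exonuclease, at 0.440. Ppargc1a, the coactivator PGC-1α that drives mitochondrial biogenesis, was at 134 and 82.6 CPM (0.615), the 1 lower of 11 regulators, and Ppard at a ratio of 2.0 the 1 higher. Glycolysis had 3 of 16 higher, led by Pfkp at 3.29, and 6 lower, among them Ldhb at 0.540. Here ATP synthase had a median log2 ratio of -0.51 and the mitochondrial ribosome one of -0.19, against -0.05 for all genes.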

How the data were processed

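Single cells of 1 control and 1 FA mouse kidney were measured by droplet capture. The values are raw UMI counts per gene and barcode, deposited by the authors as a single matrix; per the submitters' processing notes Seurat and the build mm10 were used, with aligner and counter not given in the sources used here. Barcode names assign each cell to a library, and 0 columns belonged to no sample.

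Gene names differed between the libraries: 230 pairs of names that are the same gene in RefSeq were joined before clustering and background counts, and 18287 genes were above 0 in both. The libraries may thus have been counted against different annotations, which is not stated, and what this does to ratios of genes with copies was not tested. Cells needed 200 genes, 500 UMIs and at most 50% mitochondrial UMIs. Scrublet scores ranked likely doublets, and the top 0.8% per 1000 barcodes were removed (488 control, 2420 FA). Scanpy 1.11.5 clustered 2000 variable genes, leaving out respiratory chain, mitochondrial, sex-linked and ribosomal genes (30 components, 15 neighbours, Leiden resolution 1, seed 0), and clusters were named by at least 3 markers detected in 5% of cells.

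Counts were summed per class and library and scaled to CPM, per 1000000 UMIs of genes not encoded by mitochondrial DNA. Ratios have exact conditional binomial 95% intervals and shares Clopper-Pearson intervals. The FA over control ratio of mitochondrial to nuclear member UMIs has an approximate 95% interval on a log scale, from Poisson errors of the counts in both libraries. Intervals were computed with scipy 1.17.1, numpy 2.4.6 and pandas 2.3.3 on Python 3.11.15 and cover counting error alone. A member was measured with 20 UMIs over both libraries and called when its ratio reached 1.5 or the inverse, with 0 set to 3 counts. No test was run, as each group has 1 library. The interval code was checked on simulated data.

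Named genes were the 13 mitochondrial genes, the Sdh genes, paired isoforms, and the 5 highest and 5 lowest members with 50 UMIs in proximal tubule-like and macrophage-like cells (3 in other classes); further members are named as examples of their complex, chosen after their values were seen. 1 nuclear member enters the counts and sums but is not reported here by name. Members, lists, markers and thresholds were chosen with earlier results of these data known. Copies were searched among GENCODE vM21 transcripts at 97% identity over 100 bases, in 73 nuclear and 13 mitochondrial members. Alternatives covered the cell filter, mitochondrial limit, doublets, resolution, denominator, weighting of cells and thresholds; medians over cells, the split by depth and the 5 mitochondrial genes without a chromosome 1 copy were added after seeing the data. Figures were drawn with matplotlib 3.10.9.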

Additional observations from a re-analysis of the deposited data

Results flagged for a closer look

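The nuclear sum stood on opposite sides of the control in a pair of classes under the same contrast. Its log2 ratio of FA over control was -0.38 in proximal tubule-like cells and 0.74 in macrophage-like cells. Each class has 1 library a group, so the difference between them was not tested. The direction was the same in both depth ranges of each class, at -0.10 and -1.20 in proximal tubule-like and 0.77 and 0.50 in macrophage-like cells of 5000 or more and of fewer UMIs. Different clusters made up both classes in the control and the FA library.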

How the results depend on the processing

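Values are log2 ratios of FA over control unless counts are named, and the cause of each shift was not tested. In proximal tubule-like cells the nuclear sum (-0.38) was -0.38 with at most 20% mitochondrial UMIs, -0.35 with no limit, -0.42 with the stricter filter, -0.28 over all UMIs, -0.71 with equal weight per cell, -0.15 at resolution 2, -0.10 and -1.20 in deep and shallow cells, and -1.22 as the median over cells. The mitochondrial sum (-1.26) was in that order -0.74, -1.87, -1.29, -1.16, -1.10, -1.54, -1.40, -0.92 and -1.33, and -1.23 without genes copied on chromosome 1. Members lower (20 of 73) numbered 50 with equal weight, 9 at resolution 2, 8 in deep and 67 in shallow cells, and 6 at a ratio of 2. Of all genes, 24.5% were lower in deep and 25% in shallow cells. No such share was taken with equal weight, at resolution 2 or at a ratio of 2. In macrophage-like cells the nuclear sum (0.74) was 0.79 over all UMIs, 0.66 with equal weight, 0.60 with doublets kept, 0.77 in deep and 0.50 in shallow cells. The mitochondrial sum (-2.90) was -1.57 (20% limit), -3.20 (no limit), -2.80 (stricter filter), -2.85 (all UMIs), -2.58 (equal weight), -2.55 (doublets kept), -2.92 (resolution 2), -3.32 (deep), -0.94 (shallow) and -3.06 (without copied genes), and as the median over cells it turned to 0.72. Members higher (46 of 72) numbered 20 at a ratio of 2, where the share of all genes was not taken. The mitochondrial to nuclear ratio was lower in 11 of 11 classes, in 7 of 11 by medians, in 6 of 7 classes in shallow cells, where proximal tubule-like cells turned to 0.28, and in 11 of 12 with no mitochondrial limit, where distal convoluted and principal cell-like cells had 0.40. With doublets kept and at resolution 0.5 fewer than 20 cells of a library were named proximal tubule-like, so these gave no value there. An FA cluster led by Cyp4a14, the leading gene of cluster 27 too, stayed unnamed there (1606 and 2606 FA cells). Leading genes of injured tubule were among the reasons. No paired analysis was possible because each group has 1 library. Depth limits members with few UMIs, such as the restricted isoforms outside their main class.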
